A study of Mus musculus with 6 samples.

Results

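Imprinted genes, which are transcribed mainly from the maternal or mainly from the paternal copy, were followed in cultures of mouse cerebellar granule neurons (CGNs) given an EZH2 inhibitor. The 39 genes were chosen by name, from 15 imprinted domains, and all 39 were found among the 55341 gene symbols of the count tables. Each was given 1 label for the copy expressed, from general knowledge: 16 maternal, 22 paternal, and Grb10 either one depending on the tissue. Whether these labels hold in the cells used here was not tested. RNA was sequenced from 3 libraries of cultures given DMSO, the solvent control, and 3 of cultures given GSK-126, both added at DIV3 (day in vitro 3), with RNA taken at DIV5 per the study's methods, while the labels name the cerebellum and day 3. The cells were granule neuron precursors isolated on a Percoll gradient from early postnatal cerebella of CD1-IGS mice, and every culture also received AraC, which blocks dividing cells. The dose of GSK-126 used at DIV3 is not given in the sources used here. Each replicate was a culture from pooled litters, and the libraries carry the numbers 1 to 3 in both groups. Expression was measured from both copies together, so the copy that made each RNA was not observed.

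At many domains imprinting is set in the germ line by DNA methylation of control regions, which is kept after fertilization on 1 parental copy by factors such as ZFP57 and TRIM28. At several domains a long noncoding RNA made from the paternal copy, such as Kcnq1ot1 or Airn, silences neighbouring genes on the same chromosome. EZH2 is the catalytic subunit of Polycomb repressive complex 2 (PRC2), which trimethylates lysine 27 of histone H3 (H3K27me3), and this mark lies on the silent copy of some imprinted genes. In the brain the imprinted genes include regulators of growth, such as Igf2 and Cdkn1c, and genes of neurons, such as Ube3a and Snrpn. The comparison of GSK-126 with DMSO asks how the RNA of such genes stood in granule neuron cultures given the EZH2 inhibitor at DIV3. These cultures also held RNA of fibroblast, astroglial and microglial markers, so each value is that of the whole culture. The mark itself was not measured in these libraries.

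The promoters of the Peg3 domain and of Snrpn are shown because genes at these starts fell with GSK-126. Peg3 and Usp29 are transcribed in opposite directions from starts 164 bp apart, so their 300-base promoter windows share 263 bases. The sequences are from RefSeq on GRCm38.p6, from 250 bases before to 50 after the start, read 5′ to 3′ on the strand of the gene. The capitals in the Peg3 window mark TGACGTCA, the site bound by CREB, and those in the Snrpn window mark GCGGCA, the complement of the ZFP57 hexamer TGCCGC.
Peg3, chr7:6730370-6730669, minus strand: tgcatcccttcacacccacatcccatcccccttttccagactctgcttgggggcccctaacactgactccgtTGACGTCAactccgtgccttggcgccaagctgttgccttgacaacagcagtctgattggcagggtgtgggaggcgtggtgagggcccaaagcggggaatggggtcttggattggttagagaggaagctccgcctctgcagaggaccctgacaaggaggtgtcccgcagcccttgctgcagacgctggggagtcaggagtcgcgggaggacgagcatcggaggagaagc
Snrpn, chr7:60005150-60005449, minus strand: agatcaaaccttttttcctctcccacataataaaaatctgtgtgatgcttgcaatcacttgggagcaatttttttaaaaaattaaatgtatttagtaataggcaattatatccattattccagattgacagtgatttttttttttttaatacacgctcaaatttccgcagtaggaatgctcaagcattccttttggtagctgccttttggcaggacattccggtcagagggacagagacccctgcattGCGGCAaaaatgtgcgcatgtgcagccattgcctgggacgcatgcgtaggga
Both windows were searched on both strands for TGCCGC, for AAGATGGC, the core of the YY1 site, and for TGACGTCA, the last of these chosen after the Peg3 sequence had been read. None of these motifs overlapped another in the windows printed. TGACGTCA was held by 1.79% of 32851 promoter windows of all genes and by 3 of the 46 windows read for 30 imprinted genes (6.52%), of which those of Peg3 and Usp29 hold the same site in their shared bases. TGCCGC was held by 11.6% of all windows and by 12 of the 46 (26.1%), where Snrpn and Snurf count 1 identical window each and genes with several starts count more than 1 window. AAGATGGC was held by 2.75% of all windows and by 1 of the 46 (2.17%), that of Ube3a. The Peg3 window held 13 CpG dinucleotides, more than 62.1% of all windows, whose median was 7. TGCCGC itself holds a CpG, and its share was not compared at equal CpG count. Snrpn has 4 windows, with 2, 3, 4 and 7 CpG dinucleotides, and the one printed, which is also that of Snurf, is the one with 7 and the only one with TGCCGC. A match is a stretch of letters and not evidence of binding.

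The depth was between 7407189 and 13092763 counts on genes per library, and 9 of the 39 genes were above 100 CPM (counts scaled to a common library size, set by TMM) on average, 16 between 10 and 100 CPM and 8 between 1 and 10 CPM. Per kilobase of exon, Gnas was the most abundant, at 97.8 CPM per kb, followed by Peg13 at 77.6, H19 at 71.3, Nnat at 68.7 and Ndn at 61.0 CPM per kb. Gnas encodes the stimulatory G protein alpha subunit, H19 is a long noncoding RNA, and Ndn encodes necdin, a MAGE protein of postmitotic neurons. A total of 32 genes had enough counts to be tested. Of the 7 others, Phlda2, Ddc and Magel2 had few counts, with at most 0.134, 0.862 and 2.80 CPM in any library. Dlk1, Rtl1, Rian and Snurf were listed at 0 in every library, and no upper limit on their RNA was drawn from these zeros, for reasons given with their domains.

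Of the 32 genes tested, 4 fell with GSK-126 and none rose, at an adjusted p under 0.05 in edgeR's quasi-likelihood test with the replicate number as a block. Over all 16729 genes tested, 8.44% were called, 3.35% higher and 5.09% lower. The 4 genes that fell were Usp29, Peg3, Snrpn and Peg13, all of them paternally expressed, and they lay in 3 of the 15 domains. Among the 17 paternally expressed genes tested, 4 were called, and among the 14 maternally expressed ones, 0 were called, with 3 at an unadjusted p under 0.05. The difference between these shares was not tested. DESeq2 with the block called 4 of the 25 to which it gave an adjusted p, all lower, beside 8.8% of all genes with one. Upper-quartile scaling in edgeR called 4 lower and 1 higher, Plagl1, and moved the split over all genes from 561 higher and 851 lower to 727 and 698. The median log2 fold change of the 32 genes was -0.02, with 14 estimates above 0 and 18 below, and that of all genes tested was -0.0056, with 8220 above and 8509 below. All 3 pairs moved the same way in 13 of the 32 genes, 40.6%, beside 42.4% of all genes tested. The calls rested on the pairing of libraries by number. Without the block, edgeR called 0 of the 32 genes, with 3 at an unadjusted p under 0.05, and 0 of all genes, with 665 at an unadjusted p under 0.05.

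**Figure D1:**
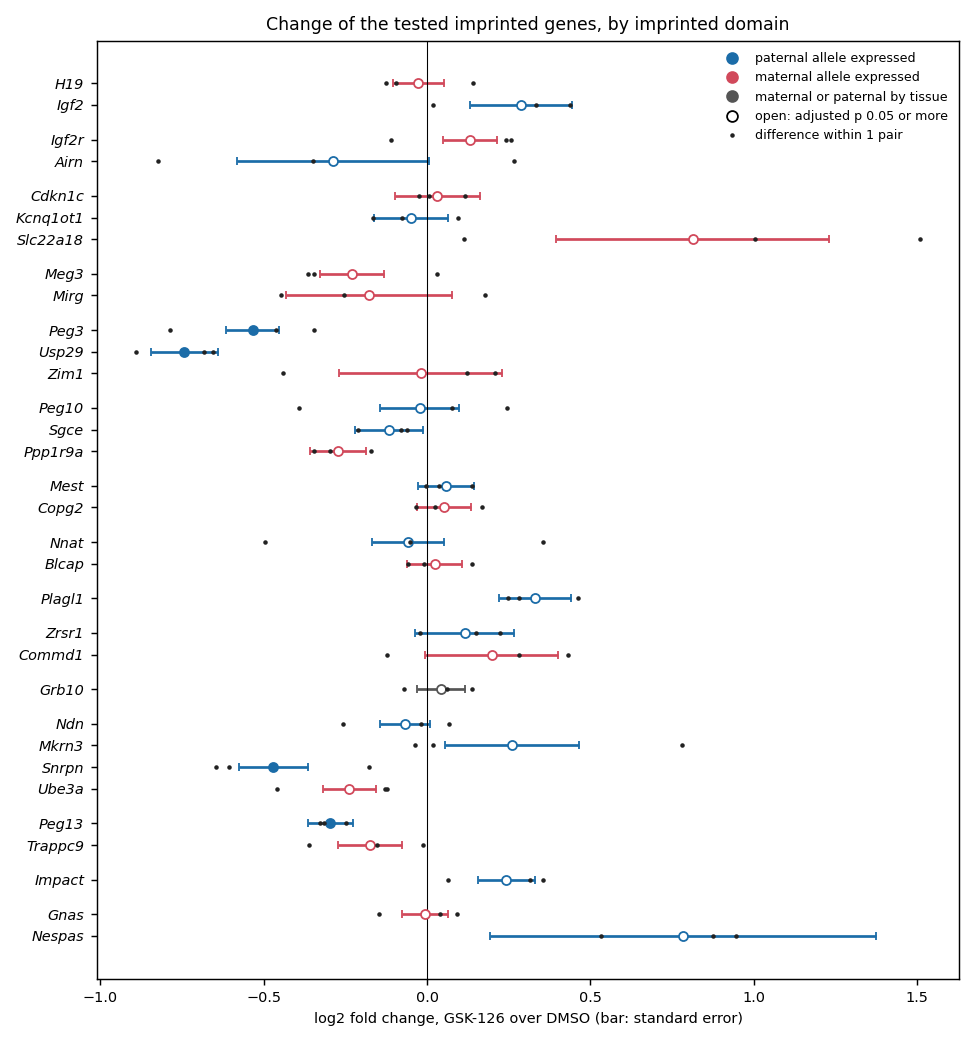
Log2 fold change of GSK-126 over DMSO (horizontal axis) for each of the 32 imprinted genes tested, grouped by domain, from the edgeR fit with the replicate block. Circles give the estimate, bars its standard error, small dots the difference within each of the 3 pairs, and filled circles an adjusted p under 0.05. The filled circles are Peg3, Usp29, Snrpn and Peg13, all left of 0.

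The Peg3 domain held the 2 largest falls. Peg3, a zinc finger protein with a part in growth and maternal behaviour (ENSMUSG00000002265.16, chr7:6703892-6730431, minus strand, GRCm38), was at 280, 493 and 354 CPM in DMSO replicates 1 to 3 and at 220, 286 and 257 CPM in GSK-126 replicates 1 to 3. Each GSK-126 library lay below the DMSO library of the same number, but the groups overlapped, since the first DMSO library was below the second GSK-126 library. Peg3 fell by 30.9% (log2 fold change -0.53, SE 0.081, adjusted p = 2.3e-04, edgeR). Usp29, a ubiquitin-specific protease gene that starts beside Peg3 on the other strand (ENSMUSG00000051527.11, chr7:6730578-6967219), was at 51.4, 82.7 and 53.5 CPM with DMSO and at 27.7, 51.5 and 33.9 CPM with GSK-126. It was lower in 3 of 3 pairs, while the first DMSO library stood level with the second GSK-126 library, so the groups overlapped. Usp29 fell by 40.3% (log2 fold change -0.74, SE 0.10, adjusted p = 7.4e-05, edgeR). Without the block the adjusted p of both was 0.953 (edgeR), with unadjusted p of 0.033 for Peg3 and 0.028 for Usp29. Both stayed under 0.05 when any 1 of the 3 pairs was left out, with adjusted p up to 0.0044 for Peg3 and 0.0025 for Usp29 (edgeR). Zim1, the maternally expressed zinc finger gene of the domain, stood between 3.55 and 7.81 CPM and was not called (log2 fold change -0.02, SE 0.25). None of the exon bases of Peg3 lie in another gene, whereas 14.3% of those of Usp29 lie in exons of Zim3 on the other strand.

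**Figure D2:**
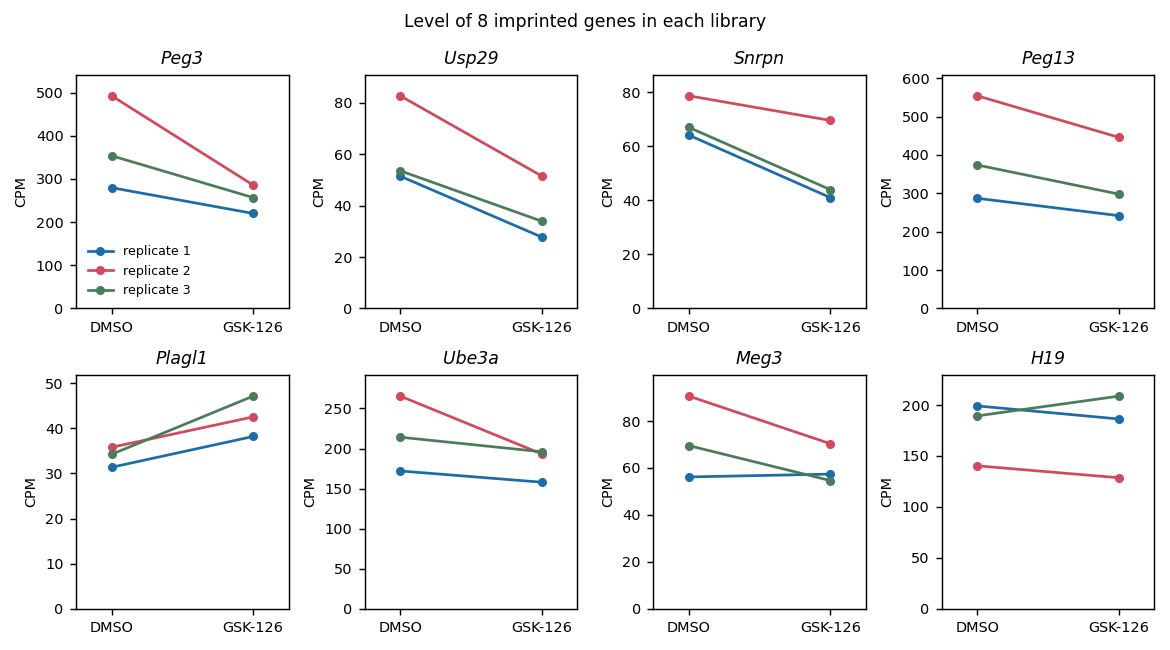
CPM (vertical axis from 0) of 8 imprinted genes in the 6 libraries, with a line joining the DMSO and GSK-126 libraries of each replicate number. The lines of Peg3, Usp29, Snrpn and Peg13 and of the uncalled Ube3a slope down in all 3 pairs. Those of Plagl1 slope up, and those of Meg3 and H19 differ in direction.

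In the Snrpn-Ube3a domain, whose loss on the paternal or maternal copy underlies Prader-Willi and Angelman syndromes in humans, 1 of 4 genes tested fell. Snrpn encodes SmN, a splicing protein of neurons (ENSMUSG00000102252.5, chr7:59982495-60140219, minus strand). It was at 64.1, 78.7 and 67.0 CPM with DMSO and at 41.0, 69.6 and 43.9 CPM with GSK-126, lower in 3 of 3 pairs with overlapping groups. Snrpn fell by 27.8% (log2 fold change -0.47, SE 0.10, adjusted p = 0.0064, edgeR), and without the first pair the adjusted p was 0.083 (edgeR). In the 6 libraries the second pair changed least, by -0.18 on the log2 scale, against -0.65 in the first pair and -0.61 in the third pair. Snurf lies with all its exon bases inside those of Snrpn and of Gm38393 on the same strand, so reads of Snurf could not be told from those of Snrpn. Of the exon bases of Snrpn, 27.3% are shared with Gm38393, which was not called (log2 fold change -0.38, adjusted p = 0.163, edgeR). Ube3a, the ubiquitin ligase made from the maternal copy in neurons, was at 172, 265 and 214 CPM with DMSO and at 158, 193 and 196 CPM with GSK-126. Its values were lower in 3 of 3 pairs, but the test was not passed (log2 fold change -0.24, SE 0.080, adjusted p = 0.076, edgeR), and without the second pair the estimate was -0.12 (adjusted p = 0.411, edgeR). Of the exon bases of Ube3a, 27.3% are shared with genes on the other strand, among them Snhg14, the paternal transcript that runs through Ube3a, with a log2 fold change of -0.33 (adjusted p = 0.030, edgeR). That call was lost without the first pair (adjusted p = 0.096) and without the second pair (log2 fold change -0.19, adjusted p = 0.302), both from edgeR, and in DESeq2 with the block (adjusted p = 0.051). Ndn and Mkrn3, further paternally expressed genes of the domain, were not called, with log2 fold changes of -0.07 (SE 0.077) and 0.26 (SE 0.21).

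Peg13, a paternally expressed noncoding RNA inside an intron of Trappc9 (ENSMUSG00000106847.1, chr15:72805600-72810324, minus strand, a single exon), was among the most abundant of the 39 genes. Its level was 287, 554 and 374 CPM with DMSO and 242, 446 and 298 CPM with GSK-126. Replicate 2 was highest in both groups, and the fall within pairs was even, from -0.25 to -0.33 on the log2 scale. Peg13 fell by 18.6% (log2 fold change -0.30, SE 0.069, adjusted p = 0.0090, edgeR), and without the third pair the adjusted p was 0.059 (edgeR). Trappc9, the maternally biased gene of a vesicle tethering complex around it, was not called (log2 fold change -0.18, SE 0.098). Kcnk9, a potassium channel gene of the same domain that was counted with the wider list of imprinted genes, stood at 355, 722 and 441 CPM with DMSO and at 276, 582 and 387 CPM with GSK-126 and fell (log2 fold change -0.29, SE 0.070, adjusted p = 0.012, edgeR), with an adjusted p of 0.129 without the first pair (edgeR).

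H19, Igf2, Igf2r and Grb10, which are known for their part in fetal growth, were not called. H19, which carries the microRNA miR-675, was at 199, 140 and 189 CPM with DMSO and at 186, 129 and 209 CPM with GSK-126. The estimate for H19 was -0.03 on the log2 scale (SE 0.078, adjusted p = 0.888, edgeR), and its sign turned under upper-quartile scaling and total counts. Igf2, the growth factor beside it, was at 16.1, 8.30 and 20.8 CPM with DMSO and at 21.9, 8.40 and 26.2 CPM with GSK-126. The estimate for Igf2 was 0.29 (SE 0.16, adjusted p = 0.307, edgeR), with higher values in 3 of 3 pairs, and 62.8% of its exon bases are shared with Gm49394 on the same strand. H19 and Igf2 were both lowest in replicate 2 of each group. Igf2r, the receptor that removes IGF2 from the cell surface, was at 160, 186 and 228 CPM with DMSO and at 189, 172 and 273 CPM with GSK-126 (log2 fold change 0.13, SE 0.082, adjusted p = 0.376, edgeR). Grb10, an adaptor that damps insulin and IGF1 receptor signalling, was at 213, 189 and 222 CPM with DMSO and at 222, 180 and 244 CPM with GSK-126 (log2 fold change 0.04, SE 0.074, adjusted p = 0.800, edgeR). For both genes 1 pair was lower and 2 pairs were higher.

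Cdkn1c encodes p57, an inhibitor of cyclin-dependent kinases that holds cells out of the cell cycle and a known target of PRC2 in other cells. Its values were 30.9, 20.6 and 21.2 CPM with DMSO and 31.1, 20.2 and 23.0 CPM with GSK-126, within the spread of the replicates (log2 fold change 0.03, SE 0.13, adjusted p = 0.919, edgeR), and 30.7% of its exon bases lie opposite Gm44732. Kcnq1ot1, the noncoding RNA that silences Cdkn1c on the paternal copy, was at 30.7, 41.8 and 38.7 CPM with DMSO and at 32.8, 39.6 and 34.5 CPM with GSK-126 (log2 fold change -0.05, SE 0.11, adjusted p = 0.855, edgeR). In the same domain the solute carrier Slc22a18 was near the limit of the counts, at 1.15, 0.839 and 3.48 CPM with DMSO and at 3.41, 1.72 and 3.74 CPM with GSK-126. It was higher in 3 of 3 pairs, with an estimate of 0.81 (SE 0.42) that did not pass the test (adjusted p = 0.272, edgeR) and that was 0.48 without the first pair and 1.32 without the third pair. Airn, the noncoding RNA that silences Igf2r on the paternal copy, was between 2.80 and 6.06 CPM and was not called.

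Plagl1, also known as Zac1, is a zinc finger factor that restrains growth and acts on other imprinted genes (ENSMUSG00000019817.18, chr10:13060504-13131694). It was at 31.4, 35.8 and 34.2 CPM with DMSO and at 38.2, 42.5 and 47.2 CPM with GSK-126. It was the only one of the 32 genes whose groups did not overlap, against 9.44% of all genes tested. Its log2 fold change was 0.33 (SE 0.11, adjusted p = 0.074, edgeR), with higher values in 3 of 3 pairs. Under upper-quartile scaling and under total counts its adjusted p was 0.047 and 0.049 (edgeR), and its call therefore depended on the scaling. Impact, an inhibitor of the kinase GCN2, stood between 69.5 and 96.3 CPM with DMSO and between 86.4 and 110.5 CPM with GSK-126, higher in 3 of 3 pairs without passing the test (log2 fold change 0.24, SE 0.086, adjusted p = 0.095, edgeR). Ppp1r9a, which encodes neurabin I, an actin-binding protein of synapses, stood between 68.7 and 112 CPM with DMSO and between 56.0 and 88.0 CPM with GSK-126, lower in 3 of 3 pairs (log2 fold change -0.27, SE 0.086, adjusted p = 0.058, edgeR).

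Of the Dlk1-Dio3 domain, the noncoding RNA Meg3 was at 56.2, 90.6 and 69.5 CPM with DMSO and at 57.4, 70.3 and 54.6 CPM with GSK-126. It was lower in 2 of 3 pairs and did not pass the test (log2 fold change -0.23, SE 0.098, adjusted p = 0.174, edgeR). Mirg, a host of microRNAs, was between 4.32 and 6.28 CPM. Dlk1, Rtl1 and Rian of this domain had no counts, and of 45 genes annotated from the start of Dlk1 to the end of Rian only Meg3 and Gm26906 had any. Why the other genes of the region were at 0 was not tested, and their zeros were not read as absence of expression. At the Gnas domain, Gnas was at 1042, 1086 and 1162 CPM with DMSO and at 1110, 1117 and 1049 CPM with GSK-126, without a call (log2 fold change -0.01, SE 0.070, adjusted p = 0.976, edgeR), and its sign changed with the scaling. Gm20721, which lies with 99% of its exon bases opposite exons of Gnas, had about as many counts as Gnas, so reads of overlapping genes on opposite strands may not have been told apart. Nespas, the antisense RNA of the domain, was at 0.807, 0.0932 and 1.30 CPM with DMSO and at 1.21, 0.215 and 2.40 CPM with GSK-126, higher in 3 of 3 pairs with an estimate of 0.78 (SE 0.59, adjusted p = 0.487, edgeR). These levels rest on few counts, 7, 1 and 15 with DMSO and 16, 2 and 18 with GSK-126. Of its exon bases, 38.5% lie opposite other genes, among them Gnas. The other genes tested, Peg10, Sgce, Mest, Copg2, Nnat, Blcap, Zrsr1 and Commd1, had log2 fold changes between -0.12 and 0.20 and were not called.

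The spread between replicate numbers was wide for the imprinted genes, as it was for most genes. In 29 of the 32 the range over the 3 pair means was wider than the mean difference of GSK-126 from DMSO, near the 84.5% of all genes tested, and a range over 3 means tends to exceed a difference of 2. Replicate 2 had the highest value of both groups in 10 of the 32 genes and the lowest in 8, near the 26.6% and 24.3% of all genes tested. Those highest in replicate 2 included all 4 genes that fell, with Peg13 0.74, Usp29 0.70, Snrpn 0.49 and Peg3 0.46 above the other pairs on the log2 scale. Igf2 was 1.32 and H19 0.54 below the other pairs in replicate 2. Deviations from the group means over the 32 genes correlated at 0.64, 0.91 and 0.77 within pairs 1, 2 and 3. Between replicates 1 and 3 of opposite groups they correlated at 0.44 and 0.45. Between replicate 2 of a group and replicates 1 and 3 of the other, the correlations lay between -0.80 and -0.63. These values are given as a description.

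**Figure D3:**
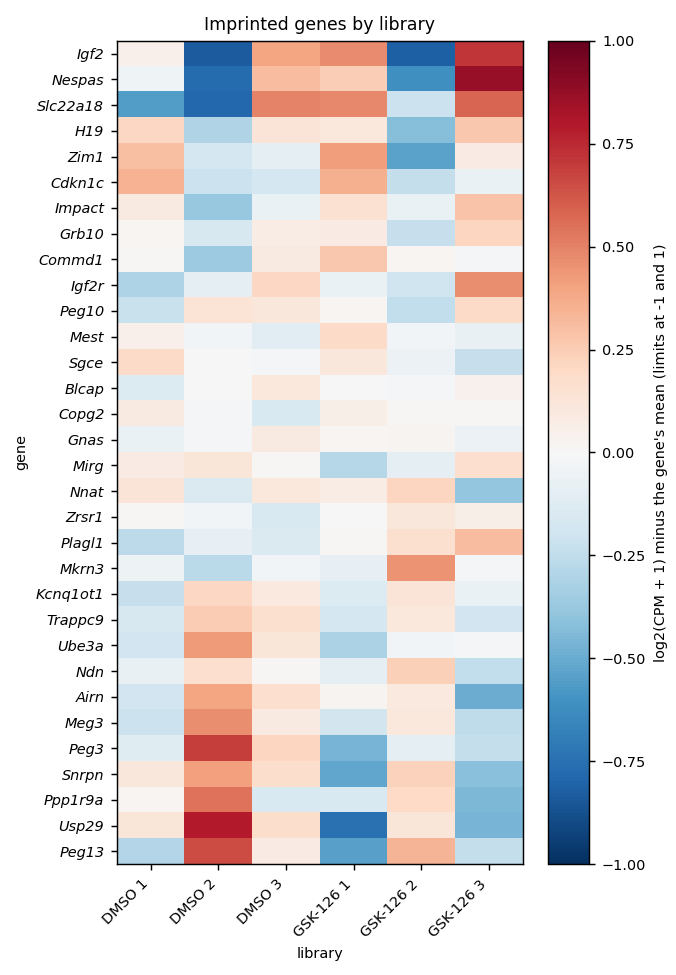
Deviation of each library from the gene's mean, as log2(CPM + 1), for the 32 imprinted genes tested (rows, ordered by their value in replicate 2), with the colour scale limited at -1 and 1. Igf2 and Nespas are low in replicate 2 of both groups, and Peg13, Usp29 and Peg3 are high in replicate 2 of the DMSO group.

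Marker lists of cell types were read beside the imprinted genes. Over all genes tested, 5.09% were called lower and 3.35% higher. Of 9 markers of granule neurons, all were detected and 6 fell, led by the vesicular glutamate transporter Slc17a7 (log2 fold change -1.95), and none rose. The summed level of the 9 was 4373, 7088 and 5055 CPM with DMSO and 3425, 5512 and 3935 CPM with GSK-126, a difference of -0.35, -0.36 and -0.36 on the log2 scale in the 3 pairs. Their sum was highest in replicate 2. So were 10 of the 32 imprinted genes tested, beside 26.6% of all genes tested, while 8 of the 32 were lowest there, beside 24.3%. The 10 were Peg3, Usp29, Snrpn and Peg13 and the uncalled Airn, Kcnq1ot1, Meg3, Ppp1r9a, Ndn and Trappc9. In these bulk samples fewer cells of a type and less RNA per cell cannot be told apart. The summed level of 9 fibroblast markers was between 7423 and 9772 CPM with DMSO and between 8219 and 10449 CPM with GSK-126, with 1 marker risen and 1 fallen. That of 7 astroglial markers was between 2338 and 7240 CPM and between 2228 and 7599 CPM, with 1 risen, lowest in replicate 2 and highest in replicate 1 of both groups. That of 7 microglial markers was between 309 and 610 CPM and between 412 and 731 CPM, with 2 risen. No marker of any list was at 0 in every library. Of the smaller lists, 1 of 5 mural cell markers, 1 of 7 oligodendrocyte markers and 1 of 5 progenitor markers tested rose. Of the 7 Purkinje cell and interneuron markers 2 fell, and their sum differed by -0.21, -0.10 and -0.44 on the log2 scale in the 3 pairs. Of the 7 endothelial markers tested 0 were called by edgeR, with 1 at an unadjusted p under 0.05. The part of cell composition in the changes of the imprinted genes was not tested.

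**Figure D4:**
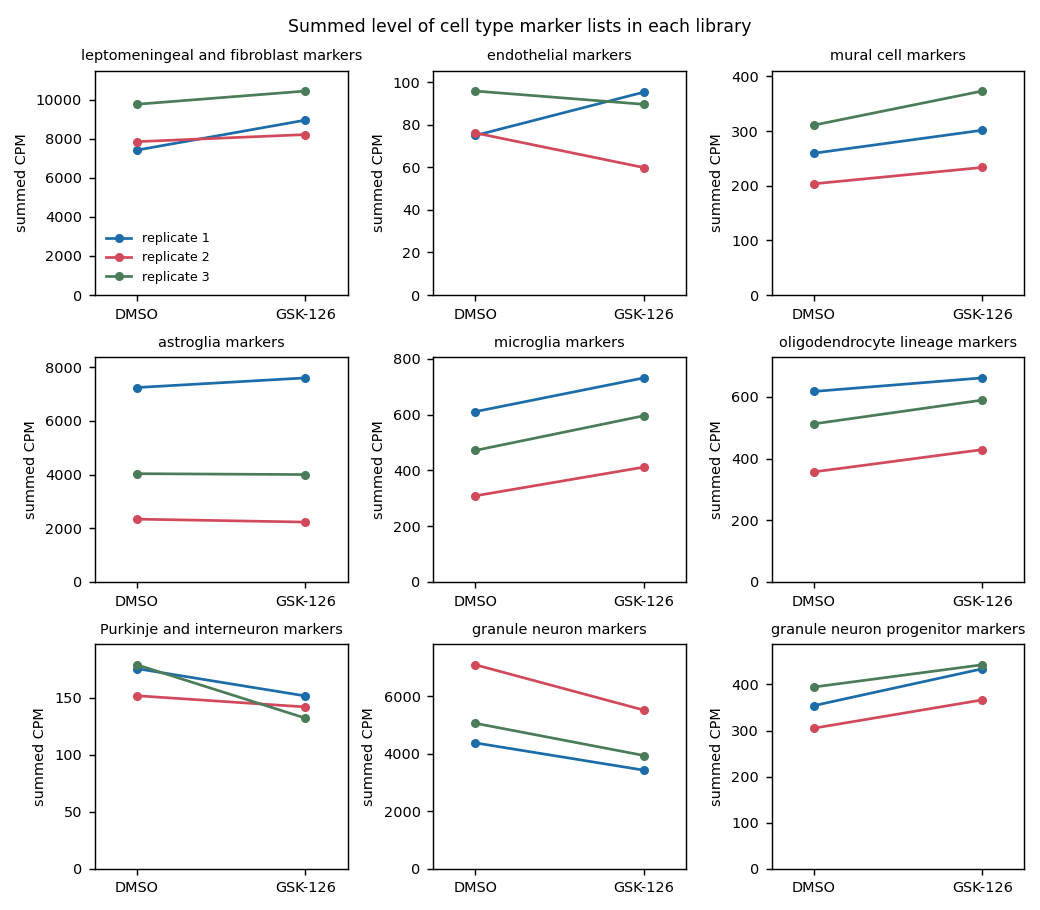
Summed CPM (vertical axis from 0) of 9 lists of cell type markers in the 6 libraries, with a line joining the libraries of each replicate number. The granule neuron sum and the Purkinje cell and interneuron sum are lower with GSK-126 in all 3 pairs. The fibroblast, microglial, mural, oligodendrocyte and progenitor sums are higher in all 3 pairs.

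Imprinted genes outside the 39 were also among those that fell. Of 49 further imprinted genes in the tables, 35 were tested, and 8 fell and 0 rose, beside 5.09% of all genes tested called lower and 3.35% higher, with a median log2 fold change of -0.0059 beside -0.0056 over all genes. The 6 with the smallest p were Zim3, Nap1l5, Rasgrf1, Adam23, Kcnk9 and Gab1. The 8 that fell were not split by the copy expressed. Rasgrf1, an exchange factor for RAS in neurons, was at 20.0, 20.7 and 12.6 CPM with DMSO and at 10.8, 11.4 and 7.61 CPM with GSK-126 (log2 fold change -0.83, SE 0.17, adjusted p = 0.0028, edgeR). Nap1l5, a relative of nucleosome assembly proteins, was at 60.6, 101 and 60.6 CPM with DMSO and at 46.1, 72.1 and 41.0 CPM with GSK-126 (log2 fold change -0.48, SE 0.092, adjusted p = 0.0019, edgeR). Zim3 had a log2 fold change of -0.72, near that of Usp29, and 68.8% of its exon bases lie opposite exons of Usp29. Reads of Zim3 and Usp29 may therefore not have been told apart. Without the second pair 4 of the 35 were called, and Adam23 and Gab1 were no longer among them (adjusted p = 0.200 and 0.129, edgeR). Without the first pair 5 were called, and without the block 0, with 2 at an unadjusted p under 0.05 (edgeR).

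Of 20 factors known to set or keep imprints, 17 were tested, and 4 fell and 0 rose, beside 5.09% of all genes tested called lower and 3.35% higher. Dnmt3a, a de novo DNA methyltransferase, was at 251, 390 and 296 CPM with DMSO and at 215, 281 and 258 CPM with GSK-126 (log2 fold change -0.30, SE 0.075, adjusted p = 0.014, edgeR), and without the second pair its adjusted p was 0.107 (edgeR). The chromatin remodeler Atrx and Arid4b, a subunit of a histone deacetylase complex, also fell, each lower in 3 of 3 pairs, and without the second pair their adjusted p was 0.093 and 0.234 (edgeR). Arid4b was also lost without the first pair (adjusted p = 0.094, edgeR). Without the second pair 1 of the 17 was called, without the first pair 2, and without the block 0, with 1 at an unadjusted p under 0.05 (edgeR). The median over the 17 was -0.09, with 13 estimates below 0, beside -0.0056 over all genes tested.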

How the data were processed

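RNA of CGN cultures given DMSO or GSK-126 at DIV3 was sequenced by the authors as poly(A)-enriched 150-bp pairs. Per the labels and the study's methods, the reads were trimmed with Trimmomatic 0.38, aligned with STAR 2.7.2b to mm10 and counted on exons with HTSeq, and the authors deposited raw counts per gene and library. The Gencode release and the strand setting are not given in the sources used here. The symbols matched GENCODE M21, which gave positions. Of 447 genes lying wholly opposite another gene's exons, 321 had counts. Among the 111 of these with at least 300 bp and a partner with 1000 counts or more, 2 had 0 counts. Their median ratio of counts per bp to those of the partner was 1.55. Lines that name no gene, with 58.7% to 60.7% of the reads listed, were left out.

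Counts were tested in R 4.3.3 with edgeR 4.0.16 (TMM, filterByExpr, quasi-likelihood test, Benjamini-Hochberg adjustment over all genes tested, calls under 0.05), on 16729 genes. The replicate number in the titles was a block, because the genes were defined with libraries paired by it. Deviations from the group means correlated at 0.54, 0.61 and 0.47 between same-numbered libraries and at 0.00096 or less between others. Deviations within a group cancel out for each gene, so the low values are tied to the high ones and add no separate evidence. The labels do not state what a number shares, and p-values measure the spread between these cultures only. The biological coefficient of variation was 9.74% with the block and 24.0% without it. No library copied another, with a chi-square of 8.98 or more per degree of freedom. CPM were scaled by TMM, and CPM per kb divided by exon length. DESeq2 1.42.0, other scalings and filters, a stricter threshold and each pair left out were alternatives. The fit was tested on simulated data.

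The imprinted genes and all lists, written from general knowledge, were chosen with earlier results of these data known. Named with values are genes that were called, genes whose 3 pairs have 1 sign and a mean difference over 0.5 on the log2 scale, genes fixed by role, and at most 6 called genes of other lists. Impact, Ppp1r9a, the listed overlapping genes and the last motif were added after values or sequences were seen. Promoters were read from RefSeq windows on GRCm38.p6 for 30 genes. Those of Peg10, Trappc9, Sgce, Cdkn1c, Rtl1, Peg13, Impact, H19 and Nespas were not analysed here. The result of 1 gene is not reported here.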

Additional observations from a re-analysis of the deposited data

How the results depend on the processing

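Without the replicate block, edgeR called 0 of the imprinted genes, 0 of the other imprinted genes, 0 of the imprint maintenance genes and 0 of all genes, and DESeq2 without it called 0, 0, 0 and 21, of which 19 were higher and 2 lower. At an adjusted p under 0.01, 4 other imprinted genes, 0 imprint maintenance genes and 716 of all genes were called. With each pair left out in turn, the calls were 3 to 4 of the imprinted genes, 4 to 7 of the other imprinted genes, 1 to 3 of the imprint maintenance genes and 833 to 1277 of all genes, the lowest of the last 3 without replicate 2. Upper-quartile scaling and total counts moved the split of all calls from 561 higher and 851 lower to 727 and 698 and to 714 and 707. The sign turned for H19, at 0.0080 with upper-quartile scaling, 0.0076 with total counts and between -0.11 and 0.024 with each pair left out. It turned for Gnas, at 4.9e-04 with DESeq2 and the block, 0.029 with upper-quartile scaling and with total counts, 0.0095 with no filter on low counts, 0.012 with at least 10 counts in every library and between -0.039 and 0.067 with each pair left out. With each pair left out, Cdkn1c was between -0.0064 and 0.061, Kcnq1ot1 between -0.10 and 0.0099 and Grb10 between -0.0038 and 0.10, none of them called under any alternative. The 3 libraries a group, and fewer where a pair was left out, limit the precision, and the cause of these shifts was not tested. Genes at 0 in every library could not be tested under any alternative.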
